A study of Mus musculus with 6 samples.

Results

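Peroxisomal fatty acid oxidation was described through 9 genes: the acyl-CoA importers Abcd2 and Abcd3, the bifunctional enzymes Ehhadh and Hsd17b4, the thiolases Acaa1b, Acaa1a and Scp2, the carnitine acyltransferase Crot and the peroxisome division factor Pex11a. They were taken by name from the 25690 genes of the deposited table, each matched 1 row, and all 9 were among the 10405 genes tested. RNA was sequenced from hepatic tissue from mice with FTO knocked out in liver (3 libraries) and from wild type control mice (3 libraries). FTO is a demethylase of N6-methyladenosine in RNA. Strain, age, sex, diet, the driver of the deletion and whether each library is a separate animal were not among the sources used here. The p-values therefore rest on the spread among these libraries, and part of that spread may be technical.

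Peroxisomes shorten fatty acids that mitochondria handle poorly, such as very long, branched and dicarboxylic chains and the side chain of bile acid precursors. ABCD transporters bring in acyl-CoA esters, an acyl-CoA oxidase makes the first double bond and hydrogen peroxide, a bifunctional enzyme hydrates and dehydrogenates, and a thiolase splits off acetyl-CoA. In rodent liver many of these genes are targets of the fatty acid receptor PPAR alpha, through which fibrate drugs enlarge the peroxisome population.

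The levels listed for Abcd2 and for both copies of the peroxisomal 3-ketoacyl-CoA thiolase, Acaa1b and Acaa1a, were lower in FTO knockout. The thiolase copies lie on chromosome 9, Acaa1b at chr9:119148023-119157093 on the minus strand and Acaa1a at chr9:119339676-119350299 on the plus strand (mm10, GENCODE). Their coding sequences are 1275 bases each and differ at 44 positions, an identity of 96.5%. Of the 50-base windows of the Acaa1b transcript, 35.5% occur letter for letter in Acaa1a transcripts, so a read within such a stretch belongs to neither copy alone. The sources used here do not say how such reads were assigned. Of the stretches of 150 coding bases that begin at a codon, the one with the most differences, coding bases 454 to 603, is shown. Its 16 differing bases are in capitals, because reads over such bases are what separates the copies.
Acaa1b: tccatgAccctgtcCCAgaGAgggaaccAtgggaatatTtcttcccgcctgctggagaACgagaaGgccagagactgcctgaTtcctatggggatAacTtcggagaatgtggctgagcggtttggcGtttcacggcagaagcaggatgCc
Acaa1a: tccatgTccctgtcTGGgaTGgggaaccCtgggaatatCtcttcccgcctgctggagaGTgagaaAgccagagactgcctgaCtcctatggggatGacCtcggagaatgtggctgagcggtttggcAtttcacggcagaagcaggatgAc

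RefSeq promoter windows (GRCm38.p6, 250 bases before to 50 after a start) were found for 7 of the 9 genes, in 8 windows. Hsd17b4 and Abcd2 had no entry. The windows of the thiolase copies are shown, as both copies had lower listed levels in FTO knockout. CCAAT on either strand is in capitals (ATTGG is this motif on the other strand). The Acaa1b window is chr9:119157044-119157343 on the minus strand, and the Acaa1a window is chr9:119341044-119341343 on the plus strand. The Acaa1a window lies inside the gene span given above, which begins at 119339676. It therefore surrounds an internal start, not the outermost one.
Acaa1b: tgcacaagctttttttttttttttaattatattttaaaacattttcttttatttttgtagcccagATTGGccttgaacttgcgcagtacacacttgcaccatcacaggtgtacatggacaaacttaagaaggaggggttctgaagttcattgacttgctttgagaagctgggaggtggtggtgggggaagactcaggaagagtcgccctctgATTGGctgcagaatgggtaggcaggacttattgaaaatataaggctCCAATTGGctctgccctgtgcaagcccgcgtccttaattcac
Acaa1a: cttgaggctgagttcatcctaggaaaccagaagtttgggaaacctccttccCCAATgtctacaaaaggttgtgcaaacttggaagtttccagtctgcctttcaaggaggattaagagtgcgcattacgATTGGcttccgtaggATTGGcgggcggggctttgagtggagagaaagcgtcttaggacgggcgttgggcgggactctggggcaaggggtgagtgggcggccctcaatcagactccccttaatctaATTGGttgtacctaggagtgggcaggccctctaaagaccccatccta

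Both windows held CCAAT 4 times, and in the Acaa1b window 2 of the 4 overlap. At least 4 occurrences were found in 1.06% of all 32851 windows of this length, and at least 1 in 37.4%. The cutoff of 4 is the count of these same windows and was used for CCAAT alone. The 1.06% is therefore no independent measure of rarity. In all, 6 motifs were searched on both strands. CCAAT was found in 4 of the 8 windows and GGGCGG in 5, against 35.7% of all windows for GGGCGG. The nuclear receptor half-site AGGTCA was found once, in the Scp2 window (chr4:108118498-108118797, also inside its gene's span), against 16.3% of all windows. Its direct repeats with a spacer of 1 base, AGGTCANAGGTCA and the looser AGGNCANAGGNCA, which contain or resemble that half-site, were in 0 of 8 windows and in 0.0396% and 0.381% of all windows. TATAAA was in 0 of 8 windows and 13.6% of all. These matches describe the letters of the windows.

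FPKM (fragments scaled by transcript length and library depth) takes length into account, so levels can be set side by side between genes. The table names no unit and holds no depth; FPKM was inferred from the values and the tools named. Read from low values, depth was roughly 34140000 to 42530000 fragments per library. This rests on 49 to 60 of 964 genes, those whose value gave 25000000 to 50000000 fragments for a single fragment, and in FTO knockout replicate 3 the lower and upper deciles were 28412600 and 43255100. Many values have more digits than Cufflinks writes, as averages would, and what was averaged is not stated, so a low value may not be 1 fragment. The hepatocyte genes Apoa1 and Ttr were at 6385 and 6148 FPKM or more in FTO knockout and at 3982 and 5149 FPKM or more in wild type. Albumin (Alb) was listed at 0 in FTO knockout replicate 3 and wild type replicate 1, which can be a failed estimate. Among 784 genes of 100 to 1000 FPKM, the median absolute log2 difference was 0.12 to 0.19 between FTO knockout libraries. In wild type it was 0.14 between replicates 1 and 2. Wild type replicate 3 differed from them by 0.42 and 0.29 and so stood apart within its group. Across the groups it was 0.20 to 0.34, so every such pair was closer than wild type replicates 1 and 3. Fto itself was at 1.79, 3.83 and 2.66 FPKM in FTO knockout replicates 1, 2 and 3, against 6.67, 6.02 and 6.40 FPKM for the corresponding wild type numbers. The FTO knockout libraries were all lower (log2 change -1.0, SE 0.19, adjusted p 0.0386 in limma). These values are for all exons together and do not show which part was deleted. Significance was lost without FTO knockout replicate 1 or 3 (adjusted p 0.0662 and 0.146) and without wild type replicate 1 or 2 (0.0804 and 0.113).

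Log2 changes are FTO knockout minus wild type on log2(FPKM + 1), which understates the change of low genes, and calls were made in limma at p under 0.05 after Benjamini-Hochberg adjustment over all 10405 genes. Of the 9 genes, 3 were called lower, 0 higher and 6 were not called. Among all genes tested, 2.76% were called, 1.65% lower and 1.11% higher. Log2 changes of all 9 genes were below 0, from -1.79 to -0.16 with a median of -0.58, beside a median of -0.0018 over all genes tested. In 7 of the 9 genes every FTO knockout library lay below every wild type library, as did 13.0% of all genes tested. The same 7 genes had an unadjusted p under 0.05, as did 10.0% of all genes in this direction. In bulk tissue, fewer cells of a type and less RNA per cell cannot be told apart.

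**Figure D1:**
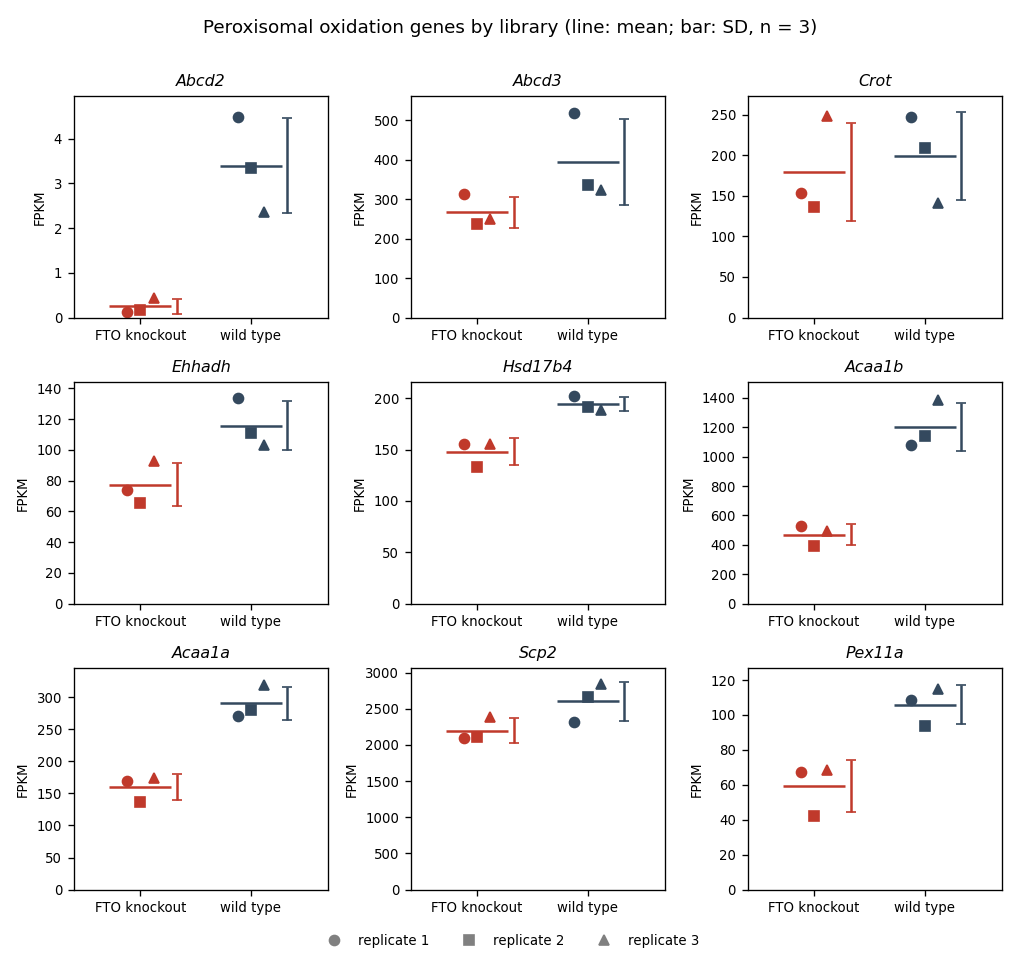
FPKM of each of the 9 genes (vertical axes, linear from 0) in the FTO knockout libraries (left, red) and wild type libraries (right, blue). Symbols are replicates, the horizontal line is the mean and the bar the SD of n = 3. The groups are apart for 7 genes and overlap for Crot and Scp2.

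Of the 9 genes, the importer Abcd2 had the largest relative difference. Abcd2 (ENSMUSG00000055782, chr15:91145871-91191799), which carries very long and polyunsaturated acyl-CoA esters, had 0.128, 0.179 and 0.446 FPKM in FTO knockout replicates 1, 2 and 3. In wild type replicates 1, 2 and 3 it had 4.49, 3.34 and 2.37 FPKM. All FTO knockout libraries were thus far below all wild type libraries, and the spread within wild type was wide. The mean was 0.251 ± 0.171 FPKM in FTO knockout and 3.40 ± 1.06 FPKM in wild type (SD, n = 3 each), 13.5-fold lower in FTO knockout (log2 change -1.79, SE 0.19, adjusted p 0.00459 in limma). The fold depended on FTO knockout replicate 3, the highest of its group, and was 22.1 without it. Abcd2 passed the minimum of 1 FPKM only through the wild type libraries, so it had to differ once it passed. It remained called with no such minimum (adjusted p 0.0291, within a range of 0.00256 to 0.0291 over all 12 alternatives), and with a pseudocount of 0.1 its log2 change was -3.38.

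Abcd3 (ENSMUSG00000028127, chr3:121758774-121815302), the abundant membrane transporter for branched and dicarboxylic acyl-CoA and bile acid precursors, was not called. It had 312, 237 and 249 FPKM in FTO knockout replicates 1, 2 and 3 and 519, 337 and 324 FPKM in wild type replicates 1, 2 and 3. Wild type replicate 1 stood well above the other libraries, and the closest libraries of the groups lay at 312 and 324 FPKM. The log2 change was -0.54 (95% interval -1.02 to -0.052, adjusted p 0.224 in limma), and it was -0.32 without wild type replicate 1. Slc27a2, which encodes the very long chain acyl-CoA synthetase, averaged 644 ± 85.4 and 711 ± 149 FPKM in FTO knockout and wild type, with overlapping libraries (adjusted p 0.774 in limma).

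Of the oxidases that start each round, Acox2 and Acox3 were not called. Acox2, the oxidase of branched chains and bile acid precursors, had 81.3 ± 2.53 FPKM in FTO knockout and 103 ± 8.53 FPKM in wild type (SD, n = 3 each), with groups that did not overlap and an adjusted p of 0.172 in limma. Acox3 averaged 8.96 ± 2.07 and 8.38 ± 1.59 FPKM in FTO knockout and wild type, with overlapping libraries.

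Both bifunctional enzymes were lower in every FTO knockout library, and neither was called. Ehhadh (ENSMUSG00000022853, chr16:21761287-21787807), the L-bifunctional enzyme, which serves straight and dicarboxylic chains, had 74.1, 65.1 and 92.6 FPKM in FTO knockout replicates 1, 2 and 3. In wild type replicates 1, 2 and 3 it had 134, 111 and 103 FPKM. FTO knockout replicate 3 came nearest to the wild type libraries. The log2 change was -0.58 (95% interval -0.97 to -0.20), with an adjusted p of 0.119 in limma and of 0.0716 to 0.295 over the alternatives. Hsd17b4 (ENSMUSG00000024507, chr18:50128201-50196269), the D-bifunctional enzyme for branched chains and bile acid precursors, had 156, 133 and 156 FPKM in FTO knockout replicates 1, 2 and 3 and 202, 192 and 189 FPKM in wild type replicates 1, 2 and 3. Its wild type libraries lay close together, with an SD of 6.69 FPKM, and its difference was the smallest among the 7 genes whose groups were apart. The log2 change was -0.39 (95% interval -0.67 to -0.11, adjusted p 0.140 in limma).

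Both thiolase copies were called lower, and the third thiolase, Scp2, was not called. Acaa1b (ENSMUSG00000010651) had 527, 391 and 492 FPKM in FTO knockout replicates 1, 2 and 3 and 1080.0, 1143 and 1385 FPKM in wild type replicates 1, 2 and 3. The highest FTO knockout library was below the lowest wild type library by a wide gap. The mean was 469.7 ± 70.6 FPKM in FTO knockout and 1202 ± 161 FPKM in wild type (SD, n = 3 each). Its log2 change was -1.36 (SE 0.17, adjusted p 0.00723 in limma). It was called under all 12 alternatives, with adjusted p-values from 0.00541 to 0.0499, the highest without FTO knockout replicate 3.

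Acaa1a (ENSMUSG00000036138), the copy that resembles Acaa1b in sequence but had a far lower wild type level, had 169, 137 and 174 FPKM in FTO knockout replicates 1, 2 and 3. In wild type replicates 1, 2 and 3 it had 272, 281 and 319.7 FPKM. The groups were apart, at 160.0 ± 20.3 FPKM in FTO knockout and 291 ± 25.5 FPKM in wild type (SD, n = 3 each). Its log2 change was -0.86 (SE 0.14, adjusted p 0.0237 in limma). The call was lost without FTO knockout replicate 1, 2 or 3 (adjusted p 0.0707, 0.0628 and 0.0798), without wild type replicate 2 (0.0959) and with no minimum level (0.0520), within a range of 0.0159 to 0.0959 over the alternatives. Acaa1a shares exon bases with Myd88 on the other strand, which had 6.98 to 9.21 FPKM in FTO knockout and 7.52 to 7.93 FPKM in wild type. Acaa1b shares exon bases with Dlec1, also on the other strand, at 0.674 FPKM or less in every library.

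Since reads may be split between the copies, their FPKM was also summed. The sum was 695, 528 and 666 FPKM in FTO knockout replicates 1, 2 and 3 and 1352, 1423 and 1704 FPKM in wild type replicates 1, 2 and 3. It was 2.37-fold lower in FTO knockout (log2 change -1.25, SE 0.16, adjusted p 0.00904 in limma). The call was lost without FTO knockout replicate 3 (adjusted p 0.0517). The ratio of Acaa1b to Acaa1a was 3.12, 2.86 and 2.82 in FTO knockout replicates 1, 2 and 3 and 3.98, 4.07 and 4.33 in wild type replicates 1, 2 and 3. The ratios of the groups did not overlap. A two-sided exact permutation test gave p = 0.1, the smallest value that 3 against 3 libraries allow, so a threshold of 0.05 could not be reached. The 95% intervals of the copies' log2 changes overlapped (-1.74 to -0.97 for Acaa1b and -1.19 to -0.53 for Acaa1a). Such intervals do not compare the copies within libraries, as the ratio does. Whether the copies changed unequally was thus not decided. Whether Acaa1a changed apart from any reads of Acaa1b assigned to it was not tested.

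Scp2 (ENSMUSG00000028603, chr4:108043839-108144998) encodes both the branched-chain thiolase SCPx and the shorter sterol carrier protein SCP2, which start from different promoters and share 1 value in the table. It was the most abundant of the 9 genes in both groups, with 2098, 2103 and 2391 FPKM in FTO knockout replicates 1, 2 and 3 and 2312, 2660.0 and 2837 FPKM in wild type replicates 1, 2 and 3. FTO knockout replicate 3 was above wild type replicate 1, so the groups overlapped. The log2 change was -0.24 (95% interval -0.57 to 0.085, adjusted p 0.414 in limma), and it was -0.064 after quantile normalization.

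**Figure D2:**
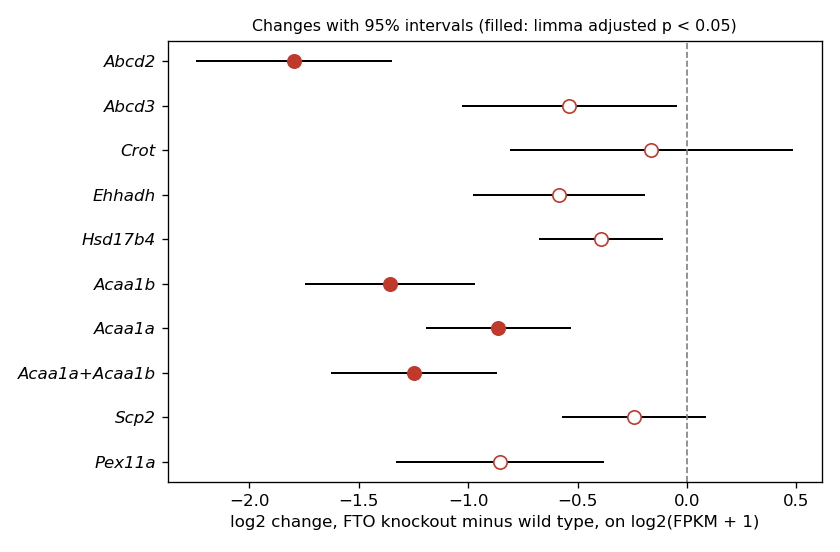
Log2 change of each gene and of the summed thiolase copies, FTO knockout minus wild type on log2(FPKM + 1) (horizontal axis), with 95% intervals from limma. Filled points were called, and they are Abcd2 at -1.79, Acaa1b at -1.36, Acaa1a at -0.86 and the summed copies at -1.25.

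Crot (ENSMUSG00000003623, chr5:8966033-8997324), the octanoyltransferase that lets shortened chains leave as carnitine esters, showed no separation of the groups. It had 153, 136 and 249 FPKM in FTO knockout replicates 1, 2 and 3 and 247, 209 and 141 FPKM in wild type replicates 1, 2 and 3. FTO knockout replicate 3 was the highest library and wild type replicate 3 the second lowest of all. The log2 change was -0.16 (95% interval -0.81 to 0.48, adjusted p 0.815 in limma). Crot shares exon bases with the predicted gene Gm27941, listed at 5.20 FPKM in FTO knockout replicate 2 and at 0 in every other library. The change turned to 0.0089 without FTO knockout replicate 2 and to 0.011 without wild type replicate 1.

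Pex11a (ENSMUSG00000030545, chr7:79735957-79743131), a membrane protein that elongates peroxisomes before they divide, had 67.1, 41.9 and 68.7 FPKM in FTO knockout replicates 1, 2 and 3. In wild type replicates 1, 2 and 3 it had 109, 93.6 and 115 FPKM. The groups were apart, with FTO knockout replicate 2 well below its group. The mean was 59.2 ± 15.0 FPKM in FTO knockout and 106 ± 11.1 FPKM in wild type (SD, n = 3 each). Its log2 change of -0.86 (SE 0.20) was close to that of Acaa1a, but the spread was larger and it was not called (adjusted p 0.0743 in limma, 0.0630 to 0.163 over the alternatives).

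The order of levels among the 9 genes was nearly the same in both groups. In FTO knockout it ran Scp2, Acaa1b, Abcd3, Crot, Acaa1a, Hsd17b4, Ehhadh, Pex11a and Abcd2, and neighbours from Abcd3 to Hsd17b4 and from Ehhadh to Pex11a had overlapping libraries. In wild type it ran Scp2, Acaa1b, Abcd3, Acaa1a, Crot, Hsd17b4, Ehhadh, Pex11a and Abcd2, and only the neighbours Crot and Hsd17b4, and Ehhadh and Pex11a, overlapped. FTO knockout replicate 2 was the lowest FTO knockout library for 7 of the 9 genes, all but Abcd2 and Scp2, where replicate 1 was lowest. FTO knockout replicate 3 was the lowest for 0 of the 9.

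**Figure D3:**
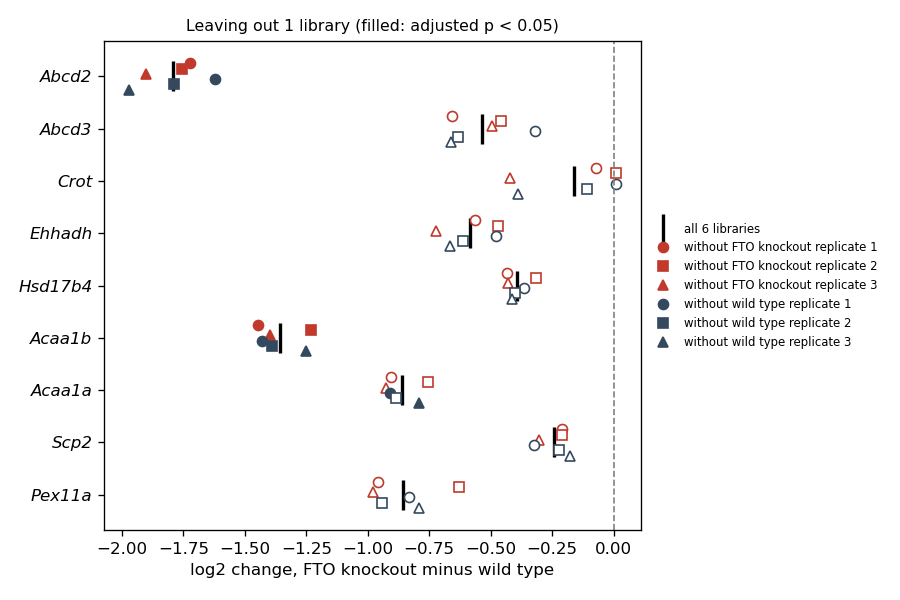
Log2 change of each gene (horizontal axis, FTO knockout minus wild type) with all 6 libraries (black bar) and without each library in turn (symbols, red for a left-out FTO knockout library and blue for a wild type library; filled where the adjusted p was under 0.05). Abcd2 and Acaa1b are filled throughout, Acaa1a in 2 of 6, and Crot reaches 0.011.

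The rest of the peroxisome was read from 3 further lists. Acot3, a peroxisomal thioesterase that was called lower, was instead counted with other PPAR alpha targets below. Of 19 other genes of peroxisomal oxidation, 1 was lower, 0 were higher and 18 missed the threshold, with a median log2 change of -0.24. Log2 changes were below 0 for 15 and above 0 for 4. Every FTO knockout library lay below every wild type library for 6 of the 19 genes, and above for 1. Among all genes tested these shares were 13.0% and 11.5%, and 1.65% were called lower and 1.11% higher. Of the 19, the gene called lower was Acot4, a peroxisomal thioesterase for succinyl-CoA and other dicarboxylic esters. It had 5.41, 7.45 and 6.53 FPKM in FTO knockout replicates 1, 2 and 3 and 12.9, 11.7 and 15.0 FPKM in wild type replicates 1, 2 and 3 (log2 change -0.93, adjusted p 0.0177 in limma). Its groups were apart, and the call was lost without FTO knockout replicate 1 or 3 (adjusted p 0.0596 and 0.0803). For 6 of 15 genes of peroxisome assembly every FTO knockout library lay below every wild type library, and for 0 above. Of these 15 genes, 1 was lower, 0 were higher and 14 missed the threshold, with a median of -0.19. This was Pex16, needed to insert membrane proteins into new peroxisomes, at 50.2 ± 6.67 FPKM in FTO knockout and 84.0 ± 10.1 FPKM in wild type (SD, n = 3 each; adjusted p 0.0456 in limma).

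Of 20 tested genes of other peroxisomal enzymes and membrane proteins, 1 was higher, 1 was lower and 18 missed the threshold, with a median of -0.19. Every FTO knockout library lay below every wild type library for 8 of the 20, and above for 3 (13.0% and 11.5% of all genes tested). Nudt7, a peroxisomal hydrolase that breaks down coenzyme A and its esters, rose. It had 975, 1012 and 1221 FPKM in FTO knockout replicates 1, 2 and 3 and 362, 413 and 616 FPKM in wild type replicates 1, 2 and 3 (log2 change 1.24, SE 0.21, adjusted p 0.0277 in limma). Every FTO knockout library was thus above every wild type library. Hao2, a peroxisomal oxidase of 2-hydroxy acids, had 0.0305, 0.0620 and 0.0371 FPKM in FTO knockout replicates 1, 2 and 3 and 0.899, 1.91 and 4.10 FPKM in wild type replicates 1, 2 and 3 (adjusted p 0.0484 in limma). Hao2 passed the minimum level only through wild type, the wild type libraries differed several-fold among themselves, and without wild type replicate 3 it no longer passed. Its call was also lost without FTO knockout replicate 1, 2 or 3 (adjusted p 0.148, 0.107 and 0.171) or wild type replicate 2 (0.130).

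Mitochondrial beta-oxidation, which shares the fatty acid substrate, had 0 higher, 2 lower and 15 not called of 17 genes, with a median of -0.19. Log2 changes were below 0 for 16 of the 17 and above 0 for 1. In 9 of them every FTO knockout library lay below every wild type library, and in 0 above. Among all genes tested these shares were 13.0% and 11.5%, and 1.65% were called lower. Hadh, the short-chain hydroxyacyl-CoA dehydrogenase, had 146 ± 7.71 FPKM in FTO knockout and 217 ± 13.2 FPKM in wild type (SD, n = 3 each; adjusted p 0.0483 in limma). Eci1, an enoyl-CoA isomerase, had 127 ± 10.2 FPKM in FTO knockout and 195 ± 18.2 FPKM in wild type (SD, n = 3 each; adjusted p 0.0498 in limma). Of the 6 analyses that left out a library, the one without wild type replicate 3 alone kept the calls of Pex16, Nudt7, Hadh and Eci1. With no minimum level these 4 genes, Acot4 and Hao2 all missed the threshold, with adjusted p-values from 0.0536 for Hadh to 0.113 for Hao2. Robust empirical Bayes also ended the calls of Hadh and Eci1 (adjusted p 0.0521 and 0.0511), which left 0 called mitochondrial genes, and quantile normalization ended that of Hao2 (0.0515). Over the 12 alternatives the adjusted p of Hadh ran from 0.0340 to 0.181 and that of Eci1 from 0.0303 to 0.152. Whether the 9 genes differ from these lists was not tested.

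**Figure D4:**
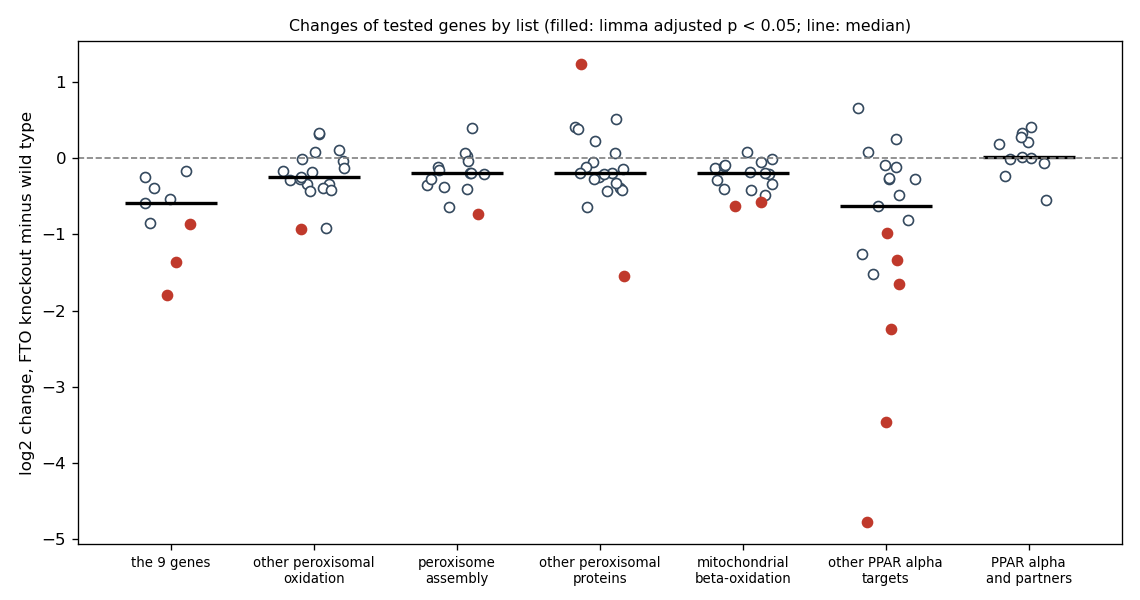
Log2 change of each tested gene (vertical axis, FTO knockout minus wild type) by list, with called genes filled and the median as a black line. Medians are -0.58 for the 9 genes, between -0.24 and -0.19 for the other peroxisomal lists and mitochondrial beta-oxidation, -0.63 for other PPAR alpha targets and 0.018 for PPAR alpha and its partners.

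PPAR alpha and its partners were not called: limma called 0 of 11 tested genes, and at an unadjusted p under 0.05 it gave 1 higher and 0 lower. Over all 10405 genes tested it gave 900 higher and 1043 lower at that level. Ppara had 30.9, 38.7 and 44.8 FPKM in FTO knockout replicates 1, 2 and 3 and 38.2, 36.4 and 62.4 FPKM in wild type replicates 1, 2 and 3 (adjusted p 0.654 in limma), and the libraries overlapped. Its partner Rxra averaged 49.1 ± 4.80 and 42.1 ± 4.45 FPKM in FTO knockout and wild type (SD, n = 3 each; adjusted p 0.430 in limma). The coactivator gene Ppargc1a averaged 1.17 ± 0.509 and 2.26 ± 1.25 FPKM in FTO knockout and wild type (adjusted p 0.346 in limma).

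Of 19 tested genes among other PPAR alpha targets, 6 were lower, 0 were higher and 13 missed the threshold, with a median of -0.63. Among all genes tested, 1.65% were called lower and 1.11% higher. Acot3, a peroxisomal thioesterase in mouse, had 7.31, 7.84 and 6.83 FPKM in FTO knockout replicates 1, 2 and 3 and 27.9, 20.5 and 27.5 FPKM in wild type replicates 1, 2 and 3 (log2 change -1.65, adjusted p 0.00173 in limma). Cidea, Mogat1 and Cd36 were also lower, with log2 changes of -4.77, -3.45 and -2.24. They are known for lipid droplets, acylglycerol synthesis and fatty acid uptake. Cidea averaged 0.257 FPKM in FTO knockout and 33.4 FPKM in wild type, and Mogat1 averaged 0.589 and 17.1 FPKM in FTO knockout and wild type. Both reached the minimum of 1 FPKM only through wild type, so they had to differ once they passed. With no minimum they remained called (adjusted p 0.000597 and 0.00699 in limma), and the highest adjusted p over the 12 alternatives was 0.000597 for Cidea and 0.00786 for Mogat1. This list was drawn up with earlier results of these libraries known, so it is no independent evidence of its direction.

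Markers of other cells moved in part with the groups. The summed level of 6 adipocyte markers was 11.5 to 14.9 FPKM in FTO knockout and 17.8 to 45.4 FPKM in wild type. All 6 had lower means in FTO knockout, and 1 of the 2 tested, Cfd, was called lower (0.951 ± 0.317 FPKM in FTO knockout and 5.34 ± 1.10 FPKM in wild type, SD, n = 3 each; adjusted p 0.00388 in limma). Cfd also reached the minimum only through wild type, and its adjusted p was 0.0272 with no minimum, the highest over the 12 alternatives. Fabp4 made up most of the sum, with 10.8, 12.4 and 13.7 FPKM in FTO knockout replicates 1, 2 and 3 and 13.3, 18.8 and 39.9 FPKM in wild type replicates 1, 2 and 3. Its libraries overlapped, and it was not called (adjusted p 0.280 in limma). The other 4 markers were under 1 FPKM in every library. The defining adipocyte genes were near 0: Adipoq and Lep were listed at 0 in all FTO knockout libraries and at 0.233 and 0.0084 FPKM or less in wild type. The summed level of 10 Kupffer cell and macrophage markers was 145 to 249 FPKM in FTO knockout and 54.2 to 178 FPKM in wild type, and all 10 had higher means in FTO knockout. Limma called 0 of these 10 (unadjusted p under 0.05 for 4 higher and 0 lower genes), but 7 without wild type replicate 3 and 1 without FTO knockout replicate 2. Of 10 hepatocyte markers 0 were called (unadjusted p under 0.05 for 5 higher and 0 lower genes), and 1 was called without wild type replicate 3. Among all 10405 genes tested, 900 higher and 1043 lower genes had an unadjusted p under 0.05 in limma. Of 8 endothelial, 4 tested stellate cell and 1 tested cholangiocyte markers 0 were called, with 1 endothelial gene lower and 0 others at an unadjusted p under 0.05. The part of these marker lists in the levels of the 9 genes was not tested.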

How the data were processed

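The authors deposited 1 table of FPKM for 6 libraries of mouse hepatic tissue. Per the submitters' processing notes, TopHat2 2.1.0, HTSeq, Cufflinks 2.2.1 and mm10 were used, without a role for each. The sources used here name no annotation release. Of the FPKM values above 0 that the authors deposited, 50.9% had more than 6 significant digits, more than Cufflinks writes. Groups came from the genotype label; replicate numbers follow sample order and pair nothing.

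Symbols and coordinates came from GENCODE release M21 (24807 identifiers matched). Genes whose mean reached 1 FPKM entered a two-sided limma test (limma 3.58.1, R 4.3.3; eBayes used an intensity trend) of log2(FPKM + 1). The summed thiolase copies replaced their rows in a second fit of the whole table. The fit was tested on simulated data. It called 68 of 100 genes given a log2 change of 1 in size and 94 of 100 given a change of 2. Of its 168 calls, 6 were false. A gene that was not called may thus still have changed. Depth was the median over single-transcript genes of 3000 to 8000 bases whose value, read as 1 fragment, gave 25000000 to 50000000 fragments.

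The genes, the 12 other lists, the tests and the alternatives were chosen with earlier results of these data known. Named genes were the 9, Fto, up to 4 called genes per list by smallest p, and a set list of oxidases, transporters, PPAR alpha partners and hepatocyte genes, of which 2 are not reported here; Adipoq, Lep, Myd88 and Dlec1 were added after their values were seen. The alternatives were a pseudocount of 0.1, no minimum level, quantile normalization, median ratio size factors, no intensity trend, robust empirical Bayes and leaving out each library. No deposited column was left out.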

Additional observations from a re-analysis of the deposited data

How the results depend on the processing

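Across the 12 alternatives, Abcd2 and Acaa1b kept their direction and call, and Ehhadh, Hsd17b4, Scp2, Abcd3 and Pex11a stayed below 0 and uncalled. With no minimum level, Acaa1a (log2 change -0.86, adjusted p 0.0520) and Fto (-1.0, 0.0975) lost their calls, and 180 genes were called, 93 of them lower, against 287 and 172. Called genes of the other lists numbered 6 then, against 13. Quantile normalization raised the higher genes to 180, against 115. The cause was not tested.

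Without 1 library, 92 to 552 genes were called, 43 to 312 higher and 49 to 240 lower, with the top counts without wild type replicate 3 and the lowest without FTO knockout replicate 3. Called genes of the other lists then ran from 6 to 22. Log2 changes ran from -0.93 to -0.75 for Acaa1a, -1.32 to -1.12 for the summed copies, -1.20 to -0.81 for Fto and -0.42 to 0.011 for Crot, which was above 0 at 0.0089 without FTO knockout replicate 2 and at 0.011 without wild type replicate 1. No paired analysis was possible because the labels give no replicate numbers shared between groups.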

Other observations

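The order of the FTO knockout libraries for the 9 peroxisomal genes differed from their order for Fto. FTO knockout replicate 2 held 60.2% of the wild type mean of Fto, the most of the 3 FTO knockout libraries, and replicates 1 and 3 held 28.2% and 41.8%. The median level of the 9 genes, as a share of each gene's wild type mean, was 64.0%, 56.2% and 65.0% in FTO knockout replicates 1, 2 and 3. With 3 libraries these values are a description.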
